A study of Mus musculus with 6 samples.

Results

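Raet1d, H60b, Icam1, Fas and Cd274 encode proteins on the surface of a tumour cell that killer lymphocytes bind. Each symbol had exactly 1 row with 1 gene name in the array table, so all 5 genes were measured, of 9490 genes in all. The genes were chosen by name from the roles of their proteins, with the TNE against TPIN values of these arrays already known, and their own values are therefore given as a description with no test. RNA came from cancer stem-like cells grown without serum, with EGF and FGF2, from prostates of TRAMP mice, in which viral T antigens under a probasin promoter are made in the prostate epithelium. The 3 TNE samples came from prostates of mice with neuroendocrine tumours, whose age the labels do not give. The 3 TPIN samples were grown from mice with prostatic intraepithelial neoplasia at an age of 10 to 11 weeks. All 6 samples share the transgene and the culture medium, and no sample from a mouse without the transgene was analysed here. The titles and cell type labels place the samples in these groups, while a further description field gives intraepithelial neoplasia throughout. Separate mice or cultures are not stated for the samples of a group, so p-values measure only their spread, which may be technical.

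Natural killer cells and cytotoxic T cells weigh activating and inhibitory signals on a target cell. NKG2D, an activating receptor of both cell types, binds stress-induced ligands of the RAE-1, H60 and MULT1 families in the mouse, and the integrin LFA-1 binds ICAM-1 to hold the killer cell against its target. Fas, a death receptor, starts apoptosis through caspase-8 when Fas ligand binds it, and PD-L1, the product of Cd274, engages PD-1 on T cells and dampens them.

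The 5 genes showed 2 patterns. Raet1d, H60b, Icam1 and Fas were lower on every TNE array than on every TPIN array, by 4.78-fold to 56.5-fold on the scale of the array values, and the Cd274 values of the groups overlapped. The groups did not overlap for 4 of the 5 genes, all lower in TNE, and across all 9490 genes this held for 20.5% in that direction, 23.3% in the other and 43.8% in either. In the limma fit over all genes these same 4 passed the threshold of adjusted p 0.05, against 10.2% of all genes lower in TNE, 10.3% higher and 20.5% in either direction. These counts follow from how the genes were picked and nothing is read from them. Values below are log2 expression as deposited, and differences are TNE minus TPIN on that scale. In bulk RNA, fewer cells with a transcript and less of it per cell cannot be told apart.

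**Figure D1:**
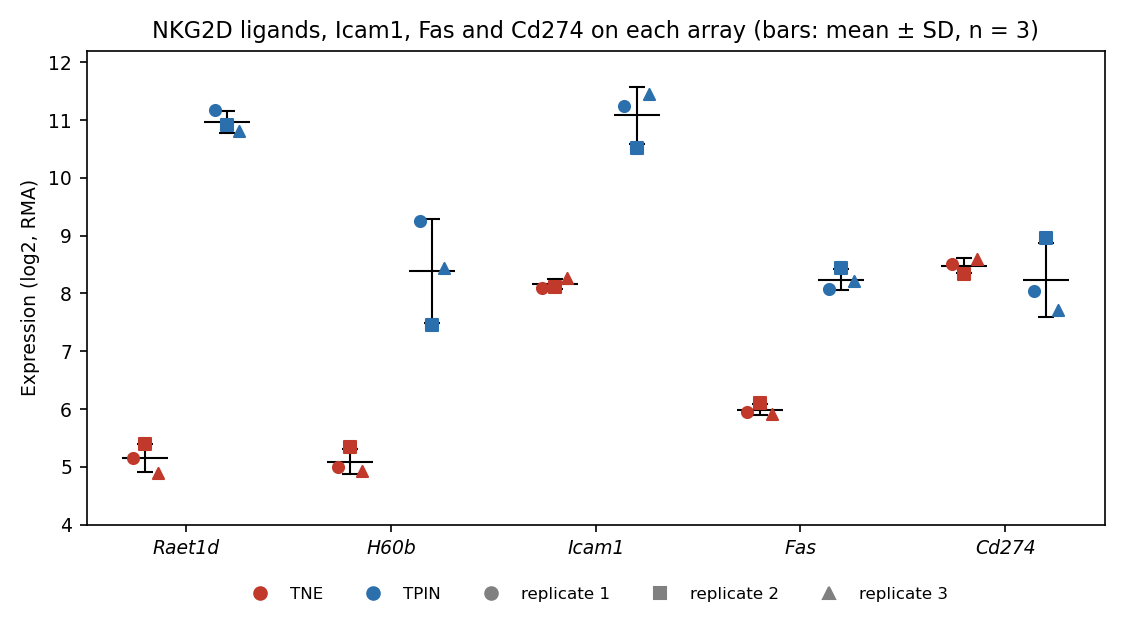
Log2 expression (RMA) of the 5 genes on each array, with TNE in red to the left of TPIN in blue, marker shape for the replicate, and bars for the mean ± SD of 3 arrays. Raet1d, H60b, Icam1 and Fas lie lower on all TNE arrays, and the TNE values of Cd274 lie within the TPIN range of 7.72 to 8.96.

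Raet1d, which encodes the RAE-1 delta ligand of NKG2D, had 5.15, 5.39 and 4.90 on TNE arrays 1 to 3, against 11.18, 10.92 and 10.81 on TPIN arrays 1 to 3. The groups were separated by 5.42 log2 units, far more than the range of 0.49 within TNE and 0.37 within TPIN. The difference was -5.82 (SE 0.27), or 56.5-fold lower in TNE, and ranked 6 of 9490 from the most negative. H60b, a second NKG2D ligand from the H60 family of minor histocompatibility antigens, had 5.0, 5.34 and 4.93 on the TNE arrays and 9.26, 7.46 and 8.44 on the TPIN arrays. TPIN replicate 2 was the lowest of its group for H60b, and the TPIN range of 1.80 exceeded the TNE range of 0.41. The difference of -3.30 (SE 0.45) was a 9.85-fold lower level in TNE. Over all genes the median range within a group was 0.63 in TNE and 0.74 in TPIN, so H60b varied more than most genes among the TPIN arrays. Both genes lay near 5 in TNE on a table whose lowest value was 2.87, and without a detection call neither can be called absent there. RMA narrows differences close to background, which would make such folds too small. RAE-1 genes are near-identical copies, and the probes of the Raet1d row may also read transcripts of its relatives, which was not tested.

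Of 9 NKG2D ligand genes listed, Raet1d and H60b were the 2 with a row. Raet1a, Raet1b, Raet1c, Raet1e, H60a, H60c and Ulbp1, which encodes MULT1, were not analysed here. The NKG2D ligands described are therefore 2 of 9.

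Icam1, the adhesion ligand of LFA-1, had 8.09, 8.12 and 8.26 on the TNE arrays, and the TPIN arrays had 11.25, 10.52 and 11.46. The TNE arrays lay within 0.17 of each other, and TPIN replicate 2 was the lowest of its group, as for H60b. The difference was -2.92 (SE 0.32), 7.58-fold lower in TNE. Fas, the death receptor, had 5.94, 6.10 and 5.92 in TNE and 8.07, 8.44 and 8.22 in TPIN. Here TPIN replicate 2 was the highest of its group, and the ranges were 0.18 in TNE and 0.37 in TPIN. The difference was -2.26 (SE 0.26), 4.78-fold lower in TNE.

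Cd274, which encodes PD-L1, had 8.51, 8.34 and 8.60 in TNE and 8.05, 8.96 and 7.72 in TPIN. The highest and the lowest of the 6 values were both in TPIN, and all 3 TNE values lay between them. Its difference was 0.24 (SE 0.36), with a 95% interval of -0.59 to 1.08, an interval that holds differences in both directions. The TPIN range was 1.24 and the TNE range 0.26. The difference was 0.60 without TPIN replicate 2 and -0.02 without TPIN replicate 3, so its sign rests on single TPIN arrays. For the other 4 genes, leaving out any 1 array gave differences from -5.94 to -5.70 for Raet1d, from -3.76 to -2.86 for H60b, from -3.20 to -2.73 for Icam1 and from -2.34 to -2.16 for Fas.

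The cells' labels were set against marker genes. For the counts of each marker list here and in the next paragraph, the share over all genes was 10.2% called lower in TNE and 10.3% higher. Fibroblasts and smooth muscle cells had 15 markers with a row, of 17 listed, whose mean was 7.64, 7.56 and 8.70 on the TNE arrays and 11.28, 11.47 and 11.53 on the TPIN arrays. Of these 15 genes 11 fell and none rose, and the 3 of highest mean were Dcn (10.91 ± 0.24 in TNE, 13.72 ± 0.06 in TPIN), Col3a1 (9.73 ± 0.47 in TNE, 12.51 ± 0.94 in TPIN) and Pdgfra (9.24 ± 1.82 in TNE, 12.61 ± 0.56 in TPIN; SD, n = 3 each). Raet1d, H60b, Icam1 and Fas differed in the same direction as this marker mean between the groups. Within TNE, replicate 3 had the highest marker mean and the highest Icam1 value, but the lowest values of Raet1d, H60b and Fas. The part of these markers in the differences of the 4 genes was not tested. Only 3 of 15 prostate epithelial markers had a row: Acpp (6.49 ± 0.25 in TNE, 12.08 ± 0.39 in TPIN), Krt18 (7.60 ± 0.15 in TNE, 8.27 ± 0.14 in TPIN) and Krt8 (7.59 ± 0.26 in TNE, 7.92 ± 0.06 in TPIN). Of these Acpp fell (limma adjusted p = 0.000211). Of 14 neuroendocrine markers 6 had a row and 4 of them, Uchl1, Syt1, Snap25 and Elavl4, rose, with a list mean of 9.29 to 10.89 in TNE and 7.99 to 8.54 in TPIN. Among the 3 of highest mean, Uchl1 was one that rose (11.04 ± 0.09 in TNE, 8.37 ± 0.74 in TPIN), and Ncam1 (10.68 ± 0.81 in TNE, 10.64 ± 0.95 in TPIN) and Eno2 (9.23 ± 0.43 in TNE, 10.02 ± 0.27 in TPIN) did not pass.

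None of 15 T cell and NK cell markers had a row, among them Ptprc, Klrk1 and Prf1, so those cells were not assessed. Of 13 myeloid markers Cd68, Lyz2 and Cd14 had a row and none passed, and the myeloid mean was 8.03, 6.72 and 8.65 on the TNE arrays and 7.75, 7.14 and 7.16 on the TPIN arrays, so the groups overlapped. Of 9 endothelial markers 5 had a row. Eng and Flt1 fell, Cdh5 rose, and the list mean was 7.03, 6.82 and 7.91 in TNE and 8.37, 8.2 and 7.83 in TPIN.

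**Figure D2:**
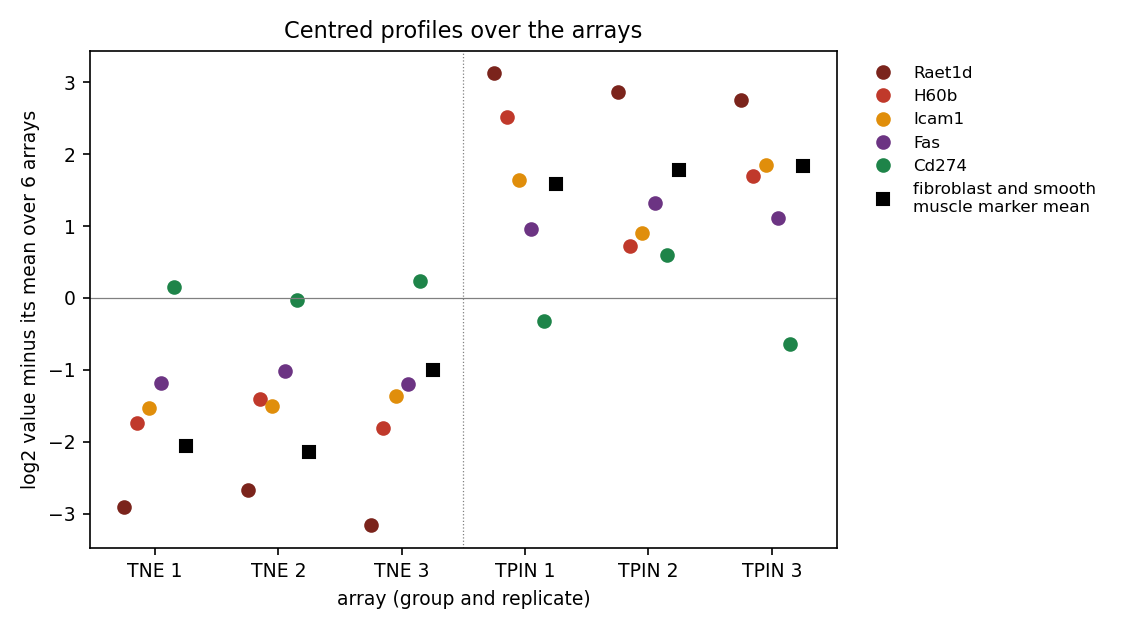
Log2 value of each of the 5 genes, and of the marker mean of fibroblasts and smooth muscle cells (15 genes, black squares), on each array after its own mean over the 6 arrays was taken off. TNE arrays are on the left. The 4 genes lower in TNE lie below 0 on all TNE arrays and above 0 on all TPIN arrays, as does the marker mean, and Cd274 does neither.

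The genes with the most similar profiles were found by the root mean square difference of log2 values over the 6 arrays, after each gene was centred on its own mean. Acpp, prostatic acid phosphatase, was nearest to Raet1d at 0.235, followed by the secreted Wnt antagonist Frzb at 0.245 and the mesenchymal transcription factor Prrx1 at 0.369. Nearest to H60b were Clstn2, a calsyntenin, at 0.0852, Pamr1 at 0.218 and the collagen gene Col15a1 at 0.238. Icam1 had Gpr153 at 0.117, BC028528 at 0.164 and the tetraspanin Tspan11 at 0.206. Fas had Sec16b at 0.0628, the tropomyosin gene Tpm2 at 0.20 and the integrin gene Itgb3 at 0.215. Cd274 had the clock gene Ciart at 0.106, Proser3 at 0.115 and the checkpoint gene Hus1 of the DNA damage response at 0.144. Among the 5 genes themselves, H60b and Icam1 were closest at 0.429, then Icam1 and Fas at 0.511, and Raet1d and Cd274 were farthest apart at 3.06. These likenesses come from the same 6 arrays. For Raet1d, H60b, Icam1 and Fas they hold the difference between the groups, and for Cd274 mostly the spread among the TPIN arrays.

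The RefSeq promoter table (build GRCm38.p6) held the region from 250 bases before to 50 after the annotated start for 4 of the 5 genes, H60b not among them. These regions are shown because 3 of the genes were lower in TNE and the Cd274 values of the groups overlapped. A link between the sequences and these values was not tested. Capitals mark matches, on either strand, to the NF-kappaB forms GGAAATTCC and GGGNNTTTC, to a shortened interferon response element, GAAANNGAA, to the STAT element TTCNNNGAA, to the GC box GGGCGG and to the TATA box TATAAA.
Raet1d, chr10:22361644-22361943, + strand: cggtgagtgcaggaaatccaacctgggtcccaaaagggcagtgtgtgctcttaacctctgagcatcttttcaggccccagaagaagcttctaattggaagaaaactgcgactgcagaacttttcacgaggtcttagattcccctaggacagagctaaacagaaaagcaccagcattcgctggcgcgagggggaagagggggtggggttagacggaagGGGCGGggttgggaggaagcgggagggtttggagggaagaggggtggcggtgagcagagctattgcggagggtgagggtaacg
Icam1, chr9:21015690-21015989, + strand: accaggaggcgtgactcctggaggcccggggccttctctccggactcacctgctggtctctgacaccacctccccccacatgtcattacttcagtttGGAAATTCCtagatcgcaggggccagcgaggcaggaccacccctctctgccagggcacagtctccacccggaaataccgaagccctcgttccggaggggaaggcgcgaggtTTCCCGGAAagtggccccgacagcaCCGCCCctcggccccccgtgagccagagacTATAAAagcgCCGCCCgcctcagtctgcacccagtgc
Fas, chr19:34290409-34290708, + strand: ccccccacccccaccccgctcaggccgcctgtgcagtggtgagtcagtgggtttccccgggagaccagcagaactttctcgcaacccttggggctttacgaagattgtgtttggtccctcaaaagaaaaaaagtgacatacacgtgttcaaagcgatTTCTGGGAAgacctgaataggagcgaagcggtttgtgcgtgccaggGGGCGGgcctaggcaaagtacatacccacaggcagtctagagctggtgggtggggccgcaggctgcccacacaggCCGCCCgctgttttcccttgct
Cd274, chr19:29367188-29367487, + strand: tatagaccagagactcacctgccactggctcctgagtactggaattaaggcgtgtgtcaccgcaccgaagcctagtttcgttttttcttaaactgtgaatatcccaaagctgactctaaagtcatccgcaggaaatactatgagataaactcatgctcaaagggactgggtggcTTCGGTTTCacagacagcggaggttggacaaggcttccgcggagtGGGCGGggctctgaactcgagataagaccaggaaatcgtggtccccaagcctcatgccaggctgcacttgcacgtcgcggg

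Counted from 1 at the 5′ end of each window, the Icam1 promoter held GGAAATTCC at 98 to 106, a match found in 0.317% of the 32851 promoters of the table. This motif was taken in the form known from Icam1, so its match there was fixed by that choice. The Icam1 promoter also held a STAT element at 209 to 217 and a match to the TATA box at 264 to 269. That TATA match lies after the annotated start, which follows the first 250 bases of the window. The Fas promoter held a STAT element at 158 to 166. The STAT element occurred in 8.30% of promoters, the TATA box in 13.6% and the GC box in 35.7%. All 4 promoters held a GC box, in Raet1d at 218 to 223, where no other listed motif matched, and in Cd274 at 220 to 225. The Cd274 promoter also held GAAANNGAA, on the minus strand at 175 to 183, which 8.56% of promoters hold. That motif was shortened after a longer form had matched none of the 4 windows. GGGNNTTTC, which 4.36% of promoters hold, matched in none of the 4 windows. No marked matches overlapped each other. A match is a run of letters and not a bound site.

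Other ligands of killer lymphocyte receptors differed in both directions. Of 12 measured genes, of 23 listed, 3 fell, 1 rose and 8 did not pass, with a median difference of -0.81 against -0.023 over all genes. For the counts of this list and of each list below, the share over all genes was 10.2% lower in TNE and 10.3% higher. Pvr, the ligand of the activating receptor DNAM-1 and of TIGIT, had 6.59, 8.28 and 6.59 in TNE and 10.71, 10.56 and 9.37 in TPIN, a difference of -3.06 (SE 0.56, limma adjusted p = 0.00985). Cd80, a costimulatory ligand of CD28, was at 7.24 ± 1.46 in TNE and 11.08 ± 1.0 in TPIN (difference -3.84, limma adjusted p = 0.0135) and lost its call without TNE replicate 2. Tnfrsf14, the ligand of BTLA, fell by 0.93 on the log2 scale (limma adjusted p = 0.0435), and 5 of the 6 arrays each ended that call when left out. Cadm1, an adhesion molecule bound by CRTAM, rose by 2.21 (limma adjusted p = 0.0133; 9.87 ± 0.83 in TNE, 7.66 ± 0.33 in TPIN). Nectin2, a second DNAM-1 ligand, had 7.99 ± 0.35 in TNE and 9.20 ± 0.66 in TPIN and did not pass (limma adjusted p = 0.0621). The number of calls in the list was 2 without TNE replicate 2.

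Adhesion ligands of leukocyte integrins beside Icam1 were measured for 6 genes, of which 2 fell, 1 rose and 3 did not pass. Jam2, a junctional adhesion molecule, fell by 3.88 (8.0, 6.92 and 7.19 in TNE, 11.99, 10.73 and 11.04 in TPIN, limma adjusted p = 0.00179). Thy1, which is also one of the fibroblast markers, fell by 3.94 (limma adjusted p = 0.00725). F11r, the epithelial junctional adhesion molecule JAM-A, rose by 0.94 (7.48 ± 0.23 in TNE, 6.55 ± 0.13 in TPIN, limma adjusted p = 0.0433), and 5 of the 6 arrays each ended this call when left out. Vcam1, which the integrin VLA-4 binds, had 9.68, 9.03 and 8.61 in TNE and 9.20, 11.33 and 10.45 in TPIN, so the groups overlapped and it did not pass (limma adjusted p = 0.142). Cd47, put in this list but better known as the signal that holds back phagocytes, had 11.00 ± 0.21 in TNE and 11.72 ± 0.12 in TPIN (limma adjusted p = 0.0858). Icam2, Icam4 and Icam5 were not analysed here.

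Death receptors and their signalling gave no common direction. Beside Fas, 31 of the listed genes were measured, and 4 fell, 3 rose and 24 did not pass, with a median difference of 0.09. Over all genes 10.2% were called lower in TNE and 10.3% higher, and nothing is read from the counts of this list. Casp8, the caspase that Fas recruits, had 8.01, 7.28 and 8.01 on the TNE arrays and 10.80, 11.42 and 9.75 on the TPIN arrays, a difference of -2.89 (SE 0.46, limma adjusted p = 0.00596). Its TNE and TPIN arrays did not overlap. The TNF receptor Tnfrsf1a fell by 1.48 (9.80 ± 0.50 in TNE, 11.28 ± 0.24 in TPIN, limma adjusted p = 0.0201). Birc3, an inhibitor of apoptosis, fell by 2.48 (limma adjusted p = 0.00667). Bak1, a pore-forming effector of apoptosis, also fell, with a difference of -1.47. Birc5, survivin, which also acts in mitosis, rose by 2.40 (10.09 ± 0.35 in TNE, 7.69 ± 0.71 in TPIN, limma adjusted p = 0.00736), Dapk1, a death-associated kinase, by 1.74, and Faim2, an inhibitor of Fas signalling, by 1.09. The list had 4 calls without TNE replicate 2, TNE replicate 3 or TPIN replicate 1 and 3 without TPIN replicate 2, and Tnfrsf1a and Dapk1 each lost theirs without 3 of the arrays. Cflar, which blocks caspase-8, had 9.08 ± 1.01 in TNE and 8.99 ± 0.95 in TPIN, and was also named after its values were seen.

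Checkpoint ligands and suppressive mediators other than Cd274 were measured for 14 genes, of which 8 fell, none rose and 6 did not pass, and the median difference was -1.70. The difference of Cd274 was 0.24. Cd276, the checkpoint ligand B7-H3, had 8.86, 9.02 and 8.92 in TNE and 10.22, 10.20 and 9.98 in TPIN, a difference of -1.20 (SE 0.25, limma adjusted p = 0.0153). The prostaglandin enzymes Ptgs2 and Ptges both fell. Ptgs2 was at 8.72 ± 2.31 in TNE and 12.93 ± 0.62 in TPIN, and Ptges at 7.11 ± 0.12 in TNE and 10.72 ± 1.27 in TPIN, for differences of -4.22 and -3.61. The cytokine gene Il6 fell by 4.44, at 4.76, 4.55 and 4.55 in TNE and 11.17, 8.44 and 7.58 in TPIN. Its TNE values lay below those of Raet1d and H60b, so the same caution about values near background applies. Leaving out any 1 array gave Il6 differences from -5.18 to -3.39. Entpd1, the ectonucleotidase CD39, fell by 2.86. The limma adjusted p of Ptges, Il6, Entpd1 and Ptgs2 lay between 0.00624 and 0.0260. Leaving out 1 array gave 2 calls for TNE replicate 2 and for TPIN replicate 1, 3 calls for TPIN replicate 2 and 5 for TNE replicate 3, and Cd276, Entpd1 and Ptgs2 each lost their call without TNE replicate 2, TPIN replicate 1 or TPIN replicate 2. Pdcd1lg2, which encodes PD-L2, the other ligand of PD-1, was not analysed here.

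Interferon-gamma induces Cd274 in many cells. Its receptor genes Ifngr1 and Ifngr2 were lower in TNE, and the Cd274 values of the groups overlapped. A link between these values was not tested. Of 16 measured genes of interferon-gamma signalling and PD-L1 regulation 4 fell, none rose and 12 did not pass, with a median difference of -0.76. Ifngr1, the ligand-binding chain of the receptor, had 9.64, 9.31 and 9.02 in TNE and 11.10, 10.78 and 11.25 in TPIN, a difference of -1.72 (SE 0.29, limma adjusted p = 0.00733). Its partner chain Ifngr2 fell by 1.61 (limma adjusted p = 0.0317), and the transcription factor Stat3 (difference -1.15) and the feedback inhibitor Socs3 (-1.18) also fell. For each of Ifngr2, Stat3 and Socs3, leaving out any 1 array other than TNE replicate 1 ended the call, and the list had 1 call without TNE replicate 2, TNE replicate 3, TPIN replicate 1 or TPIN replicate 2 and 2 without TPIN replicate 3. The kinase gene Jak1 had 10.98 ± 0.38 in TNE and 11.72 ± 0.14 in TPIN and did not pass (limma adjusted p = 0.104). Cmtm6, which keeps PD-L1 at the cell surface, had 9.71 ± 0.52 in TNE and 10.06 ± 0.37 in TPIN, and Irf1, an activator of Cd274, 8.95 ± 0.57 in TNE and 9.51 ± 0.51 in TPIN. These 2 genes did not pass and were named after their values were seen.

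NF-kappaB signalling, which drives Icam1 in many cell types, had 18 measured genes, of which 5 fell, none rose and 13 did not pass, with a median difference of -1.12. The interleukin-1 receptor Il1r1 had 5.66, 5.64 and 7.0 in TNE and 10.94, 11.65 and 10.91 in TPIN, a difference of -5.07 (SE 0.44, limma adjusted p = 0.000888). The endotoxin receptor Tlr4 (difference -2.69), the bacterial lipoprotein receptor Tlr2 (-1.04), the nuclear cofactor Bcl3 (-2.44) and its relative Nfkbiz (-1.51) also fell, with limma adjusted p between 0.00981 and 0.0440. Nfkbiz lost its call without any 1 array other than TNE replicate 1, Tlr2 without any 1 of 4 arrays, and Tlr4 without TPIN replicate 1 or TPIN replicate 2. The subunit gene Rela had 9.57 ± 0.84 in TNE and 10.52 ± 0.56 in TPIN and did not pass, named after its values were seen. The list had 9 calls without TNE replicate 1, 3 without TNE replicate 2, TNE replicate 3 or TPIN replicate 1, and 2 without TPIN replicate 2. The fibroblast and smooth muscle marker mean differed alongside the genes that fell in each of the 6 lists, at 7.97 ± 0.63 in TNE and 11.43 ± 0.13 in TPIN (SD, n = 3 each), and its part in the counts was not tested.

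**Figure D3:**
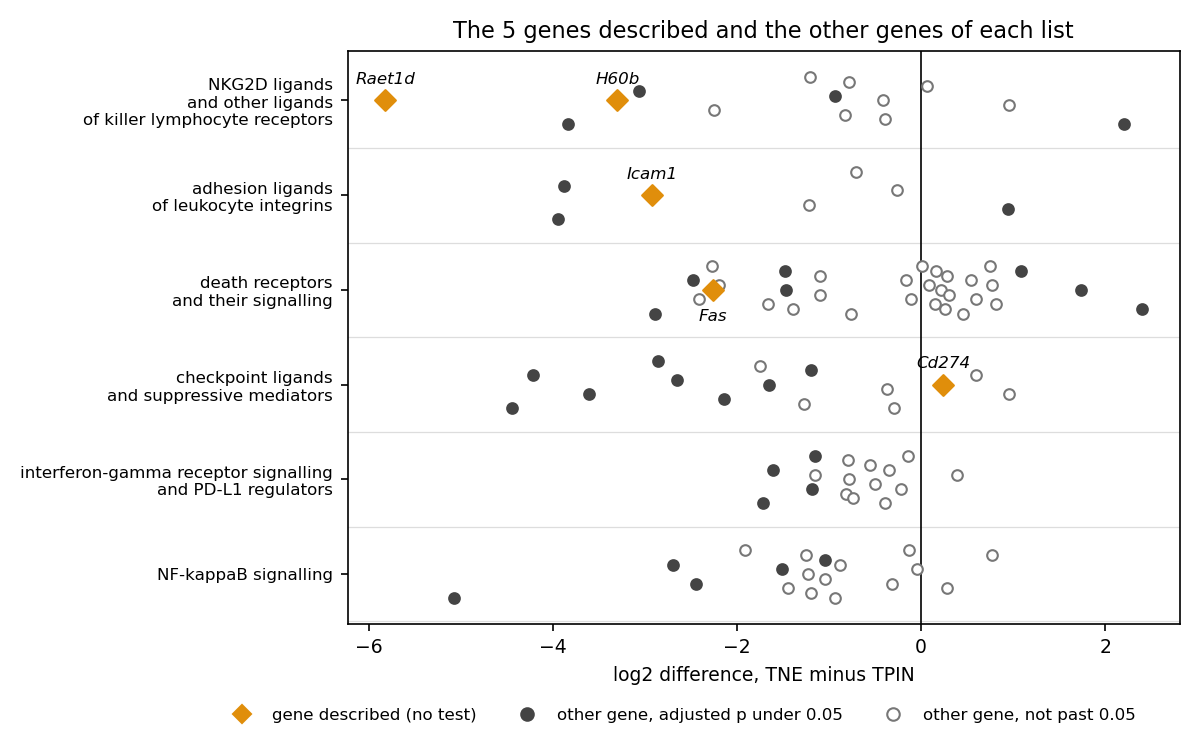
Log2 difference, TNE minus TPIN, of the 5 genes described (diamonds, no test) and of the other measured genes of each list, filled where the limma adjusted p was under 0.05 and open where it was not. Points are spread vertically for legibility. Cd274 lies at 0.24 beside 8 checkpoint and mediator genes that fell, and genes of the death receptor list lie on both sides of 0.

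The chromosomal neighbours of the 5 genes were compared, by position in the RefSeq gene order and after the values had been seen. Raet1d and H60b are adjacent in the order of protein-coding genes on chromosome 10. Of the other measured genes within 5 places of Raet1d, Tbpl1 had a difference of 0.98 (limma adjusted p = 0.0494), and Sgk1 at -1.02 and Eya4 at 0.44 did not pass. Icam1 on chromosome 9 had 3 measured neighbours: Mrpl4 next to it at 0.01, the sphingosine phosphate receptor S1pr2 at -1.59 (limma adjusted p = 0.0112) and the DNA methyltransferase Dnmt1 at 1.76 (limma adjusted p = 0.00794). Around Cd274 on chromosome 19, 6 genes were measured and 1, 9930021J03Rik at -1.22, fell, with a median difference of -0.43. Of all genes, 10.2% were called lower in TNE and 10.3% higher.

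Of the 6 measured neighbours of Fas, on another stretch of chromosome 19, 4 fell, against 10.2% of all genes called lower in TNE. The 2 genes on either side that lay nearest all fell: Stambpl1 (-3.40), the smooth muscle actin gene Acta2 (-3.99), the cholesterol hydroxylase gene Ch25h (-4.15) and the lysosomal lipase gene Lipa (-2.15), with limma adjusted p between 0.00113 and 0.00576. Ch25h had 5.73, 6.52 and 5.92 in TNE and 9.85, 10.90 and 9.88 in TPIN, so the groups did not overlap. Farther along, the interferon-induced genes Ifit2 (-0.65) and Ifit3 (-2.98) did not pass. Acta2 is one of the fibroblast and smooth muscle markers. Whether the neighbourhoods differ was not tested.

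**Figure D4:**
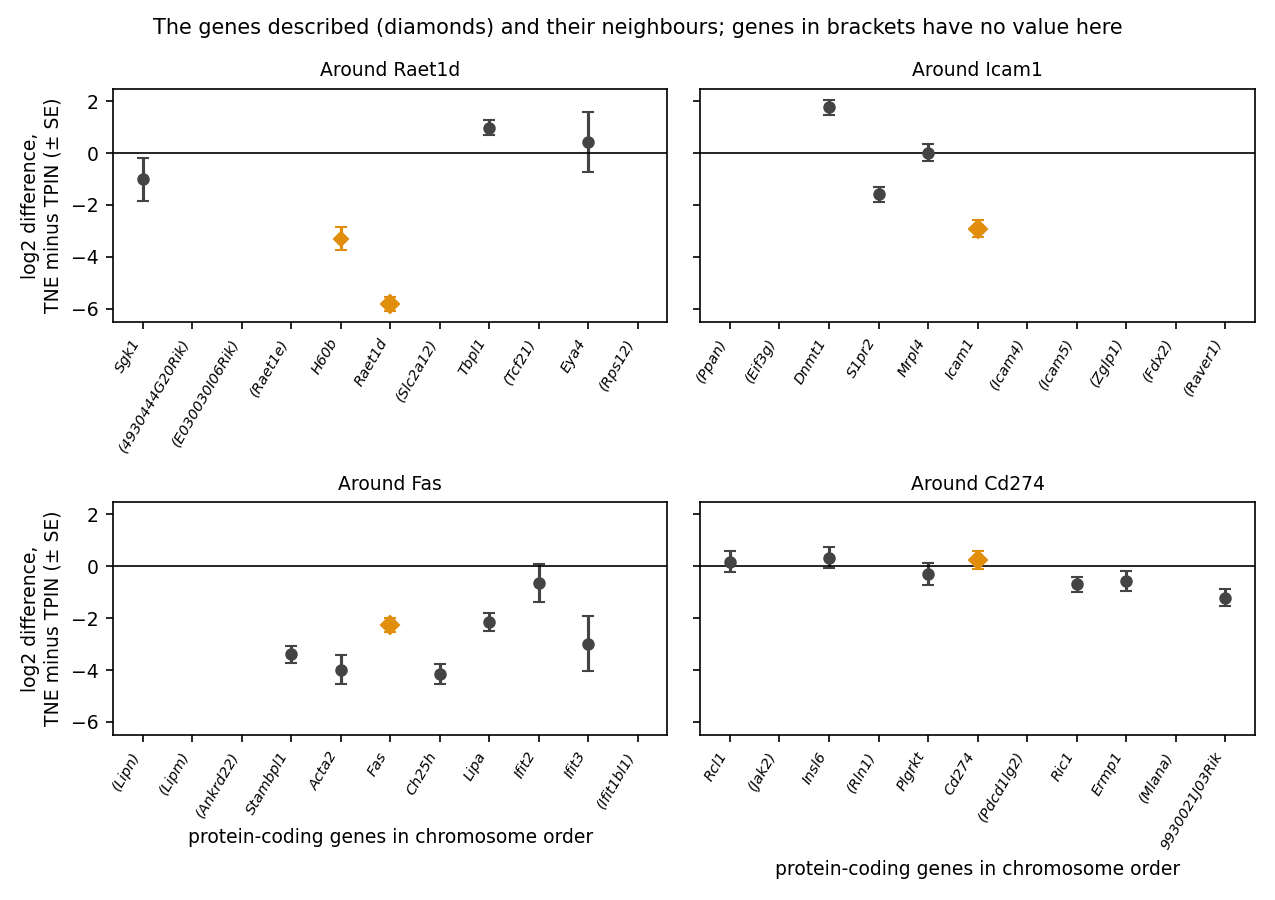
Log2 difference, TNE minus TPIN (± SE of the limma fit), of the genes described (diamonds) and of measured protein-coding genes within 5 places on the chromosome, in chromosome order, with names in brackets where no value was analysed. The 4 genes nearest Fas lie between -4.15 and -2.15, while the values around Cd274 and Raet1d lie closer to 0 apart from H60b.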

How the data were processed

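RNA of 3 TNE and 3 TPIN samples was labelled with biotin and hybridised to 1 single-colour array each, per the labels' protocols. The authors deposited log2 values and used RMA, according to the submitters' processing notes, with no version given. RMA sets all arrays to a shared distribution and narrows differences near background. The table has 10361 rows, selected by a rule that the labels do not state. The array annotation named 1 gene in 9496 rows, more than 1 in 374 and no gene in 491. Of the rows with 1 gene, 9486 matched the RefSeq gene table (GRCm38.p6) by Entrez identifier. The row of highest mean was kept for 6 genes with several rows, leaving 9490 genes. The number of arrays limits the precision.

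Groups came from sample titles, and replicate numbers, in accession order, pair nothing. limma 3.58.1 in R 4.3.3 fitted a mean per group with empirical Bayes moderation, a two-sided test and Benjamini-Hochberg adjustment over all genes, at 0.05. On simulated data with 200 of 9490 genes changed, it recovered 54.7% of changes of 2 log2 units and 4.60% of changes of 1, and 4.60% of calls were false. The fit of the deposited values called 1941 genes, far more than were changed in the simulation. The adjusted p depends on that share, so these rates may not hold for the deposited values. The 5 genes and all lists were chosen with earlier results of these data known. Named were the 5 genes, the 5 of smallest p in each list, the 3 nearest profiles of each gene and the 3 markers of highest mean in each marker list, with counts of 5 or fewer named in full. Other names are marked. The NF-kappaB and interferon motifs were shortened to 9 letters after longer forms had been searched. Array medians ran from 8.82 to 9.10, and correlations were 0.813 to 0.912 within TNE, 0.835 to 0.901 within TPIN and 0.513 to 0.706 between groups.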

Additional observations from a re-analysis of the deposited data

How the results depend on the processing

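Raet1d, H60b, Icam1 and Fas stayed lower in TNE when any 1 array was left out, when the arrays were quantile-normalized again or centred on their medians, and with array quality weights. Cd274 ran from -0.02 to 0.60 without single arrays and was at -0.11 with array weights. The count over all genes, 1941, was 832 to 2596 without single arrays (832 without TNE replicate 2, 936 without TPIN replicate 1, 1115 without TPIN replicate 2) and 4267 with array weights. Without single arrays the calls ran from 2 to 6 for other killer lymphocyte ligands, 2 to 3 for adhesion ligands, 3 to 10 for death receptors, 2 to 8 for checkpoint ligands and mediators, 1 to 5 for interferon-gamma signalling and 2 to 9 for NF-kappaB. With array weights there were 7 calls for other killer lymphocyte ligands, 17 for death receptors and 10 for NF-kappaB. The cause was not tested. The alternatives were run for 30 list genes, those of smallest p in each list. Of 26 of these past the threshold, 12 stayed past it under every alternative that held them, and none of the 30 turned round. Il6 is counted in these 12 although it was left out with the dim rows. Bak1, Faim2, Cflar, Cmtm6, Irf1 and Rela were not run. Markers, nearest profiles and chromosomal neighbours were not run either, unless among these 30 or the 5 genes described. Tnfrsf14 (adjusted p = 0.0595) and Stat3 (0.0501) lost their call after quantile normalization, and Tnfrsf14 (0.0594) and F11r (0.0528) after median centring. Adding an intensity trend changed no call among these 30. Leaving out dim rows removed F11r, Il6, Entpd1 and Tlr4, and changed no call among the 26 genes that stayed. No paired analysis was possible because the labels give no replicate numbers shared between the groups.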
